A study of Mus musculus with 5 samples.

Results

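Muc2, Fcgbp, Zg16, Clca1, Tff3, Spink4 and Reg4 are 7 genes whose products fill and build the mucus of the colonic goblet cell. They were chosen by name, and all 7 were counted in each of 5 single-cell libraries of mouse colon, out of 23173 genes listed in the series. In 4 of the libraries the cells came from colonic tumors of mice labelled WT, raised with the mutagen azoxymethane and the irritant dextran sodium sulfate (AOM/DSS), and all 4 had received 5-fluorouracil with irinotecan (5FU+Irinotecan). Of these, 2 libraries carried the label day 1 and are called early treatment, while 1 labelled day 3 and 1 labelled day 6 are called late treatment, as the study grouped them. The fifth library held untreated WT colon taken apart with a fibroblast dissociation, and it supplied the normal epithelial cells. The study used mice of a C57BL/6J or a mixed C57BL/6J and 129 background, and the labels give no age and do not say which mice made which library. No tumor without the drugs was analysed here. Tumor, drug and dissociation all change together between the 4 treated libraries and the normal one, so their parts cannot be told apart.

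Goblet cells belong to the secretory lineage of the intestinal crypt, which is set aside when Notch signalling is low and the transcription factor ATOH1 is on, and they mature under SPDEF. MUC2 is the gel-forming mucin that polymerises into the colonic mucus sheet. FCGBP is a large protein bound up with that sheet, CLCA1 is a secreted protease that works on MUC2, ZG16 is a small lectin that binds bacterial cell walls, and TFF3 is a trefoil peptide that helps the surface heal. SPINK4 is a protease inhibitor packed with the mucins, and REG4 is a lectin of the Reg family known from deep crypt secretory cells and enteroendocrine cells. Paneth cells, the defensin-bearing relatives of goblet cells, are at home in the small intestine and appear in the colon in disease.

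The genes lie on 4 mouse chromosomes (GRCm38, gene spans of GENCODE). Muc2 is at chr7:141690340-141754693 on the plus strand, Fcgbp at chr7:28071236-28120862 on the plus strand and Zg16 at chr7:127050156-127087328 on the minus strand. Clca1 is at chr3:145003817-145032776 on the minus strand, and Reg4 lies on the same chromosome at chr3:98222156-98236748 on the plus strand. Tff3 is at chr17:31125306-31129646 on the minus strand and Spink4 at chr4:40920052-40931395 on the plus strand. All 7 are protein-coding genes, and the counting was at their 3′ ends, so a molecule was counted once whatever its length.

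The promoters of Muc2, Fcgbp and Reg4 are shown because these 3 genes followed different courses across the libraries below, and because they were the members in the RefSeq promoter table used here (build GRCm38.p6, 250 bases before to 50 after the start, 5′ to 3′ on the gene's strand). Capitals mark matches, on either strand, to CAGCTG (an E-box of the ATOH1 kind), CAGATG (another E-box), CNATAAA (a CDX core), TGTTTAC and TGTTTGC (FOXA cores), CGGAT (an ETS core of the SPDEF kind), GGGTGTG (a KLF4 core) and TATAAA (the TATA box, which the CDX core can overlap). Zg16, Clca1, Tff3 and Spink4 are named only.
Muc2, chr7:141690090-141690389, plus strand: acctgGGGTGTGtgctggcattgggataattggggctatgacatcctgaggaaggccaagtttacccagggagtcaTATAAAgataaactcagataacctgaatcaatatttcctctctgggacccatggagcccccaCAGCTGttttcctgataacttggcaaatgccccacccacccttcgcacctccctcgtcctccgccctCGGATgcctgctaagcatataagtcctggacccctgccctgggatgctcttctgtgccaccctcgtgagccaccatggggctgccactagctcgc
Fcgbp, chr7:28070986-28071285, plus strand: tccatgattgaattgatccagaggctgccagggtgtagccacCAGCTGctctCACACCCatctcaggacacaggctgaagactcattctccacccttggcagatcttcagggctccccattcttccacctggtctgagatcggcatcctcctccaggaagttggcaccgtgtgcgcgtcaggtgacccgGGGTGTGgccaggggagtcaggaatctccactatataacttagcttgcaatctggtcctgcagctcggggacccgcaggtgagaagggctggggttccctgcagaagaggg
Reg4, chr3:98221906-98222205, plus strand: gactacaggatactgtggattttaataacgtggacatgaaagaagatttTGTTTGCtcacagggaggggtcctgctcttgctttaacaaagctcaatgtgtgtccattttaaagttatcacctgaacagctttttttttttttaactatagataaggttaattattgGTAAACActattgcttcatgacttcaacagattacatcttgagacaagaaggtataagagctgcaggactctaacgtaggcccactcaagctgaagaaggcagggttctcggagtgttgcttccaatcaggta

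The Muc2 and Fcgbp windows each held 1 CAGCTG, and the Reg4 window held none of either E-box. Muc2 held 1 match to GGGTGTG and Fcgbp 2. Among 32851 promoters of the same length, 16.3% held CAGCTG and 7.95% held GGGTGTG. The Reg4 window held 1 match to each FOXA core, letters that 3.65% (TGTTTAC) and 5.07% (TGTTTGC) of the promoters held. Muc2 alone of these 3 held CGGAT, found in 16.3% of all promoters, and TATAAA, found in 13.6%. CAGATG (17.2% of all promoters) and CNATAAA (10.9%) were in none of the 3 windows. These are matches of letters only.

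Cells with at least 500 genes and at most 15% mitochondrial counts were kept, from 748 to 2826 cells a library with a median of 2903 to 3601 UMIs a cell. They were clustered and named without the 7 genes, by other goblet markers (such as Agr2, Spdef and Atoh1), Paneth markers (such as Lyz1, Mmp7 and the defensins) and markers of the other cell types, so that the mucus genes did not define the cells they were measured in. Goblet-like cells formed a cluster of their own at day 6 (43 cells, with 14 of 16 goblet markers raised) and in the normal library (69 cells, 15 of 15 markers). In the other treated libraries the goblet markers were raised in the Paneth-like cluster, which held 224 cells at day 1 replicate 1, 173 at day 1 replicate 2, 62 at day 3 and 2 at day 6. This cluster passed 14 goblet markers as well as 5 Paneth markers. Goblet-like and Paneth-like cells are therefore given together as secretory cells, and apart in a finer clustering.

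The transcripts of the 7 genes were densest in the secretory cells of every library. Together they made up 3.37% of the UMIs of secretory cells at day 1 replicate 1, 2.73% at day 1 replicate 2, 3.55% at day 3, 4.27% at day 6 and 4.86% in the normal library. In other columnar cells, which are the tumor and absorptive cells, the share was 0.423%, 0.142%, 0.318%, 0.261% and 0.195% in the same order. In non-epithelial cells, which should lack these genes, it was 0.655%, 0.226%, 0.546%, 0.272% and 0.0368%. The level in non-epithelial cells was used as the measure of free RNA in each library, and in the treated libraries the columnar cells together sat below it. At day 3 that measure rests on few cells, since 5 of the 148 non-epithelial cells held 48.7% of its 7-gene UMIs; in the other treated libraries the figure was 3.52% to 13.2%.

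Levels are given as CPM, the usual scaling of a gene's UMIs to the total UMIs of the summed cells. Each of the 7 genes stood above the non-epithelial level in the secretory cells of each treated library, 28 of 28 values with a 95% interval of the ratio above 1 (counting error only). These ratios ran from 3.41 to 26.0. In other columnar cells 2 of the 28 values were above 1 and 23 were below, with ratios from 0.346 to 1.69. In squamous-like cells, the keratin-rich epithelium of these tumors, 0 were above 1 and 21 were below. Neutrophil-like cells, which do not make mucus, had 16 of 28 values above the mean of all non-epithelial cells, at up to 1.93 times. The 2 columnar values above 1 were both at day 6: Fcgbp at 180 CPM against 116 in non-epithelial cells, and Clca1 at 69.1 against 40.8. The enteroendocrine-like cells passed the non-epithelial level for Reg4 alone and at day 6 alone, with 1522 CPM against 474.

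**Figure D1:**
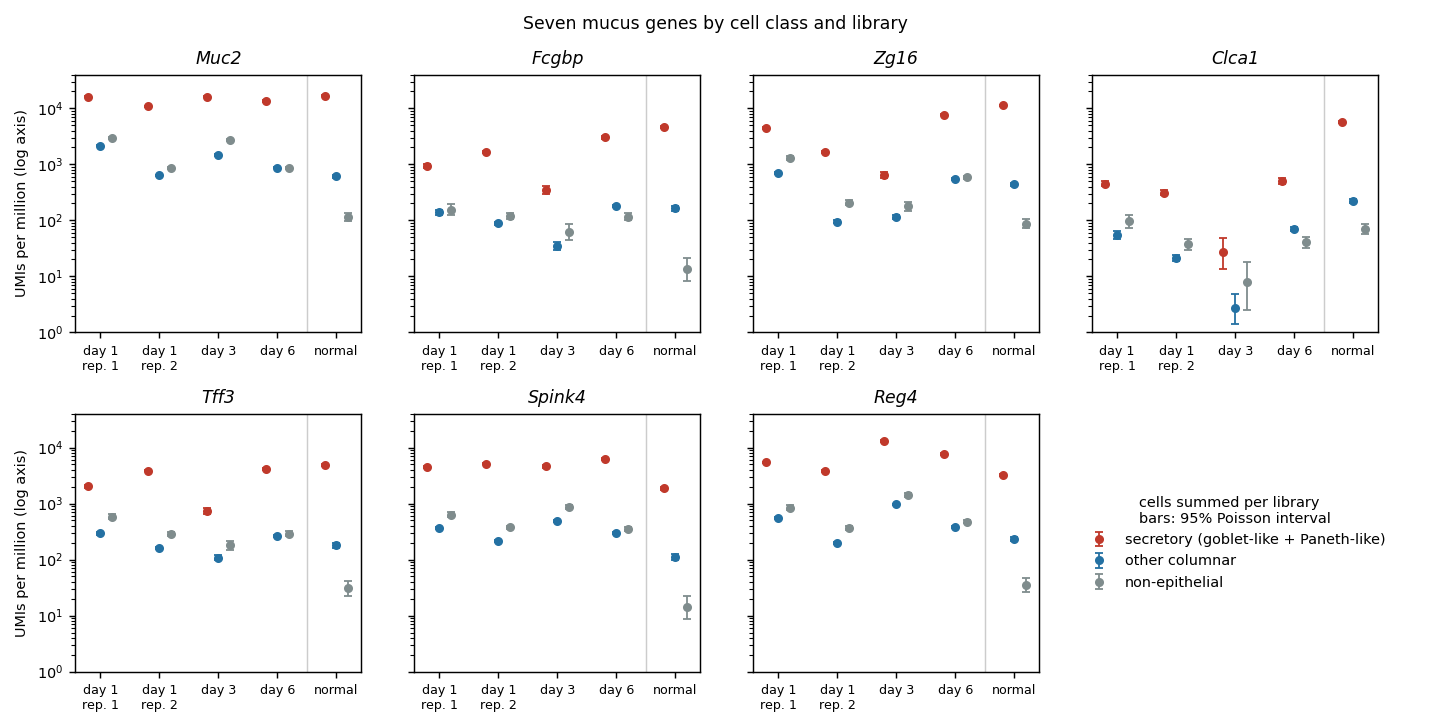
Level of each gene, in CPM on a log axis, in the summed secretory (red), other columnar (blue) and non-epithelial cells (grey) of the 5 libraries, with 95% Poisson intervals. Red points lie above blue and grey ones in every panel and library, and blue points lie at or below grey ones in most treated libraries but above them in the normal library.

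The secretory cells were 29.9% of the kept cells at day 1 replicate 1, 7.20% at day 1 replicate 2, 4.37% at day 3, 1.59% at day 6 and 6.30% in the normal library. They held 55.9%, 59.2%, 40.4%, 35.9% and 79.4% of all UMIs of the 7 genes in the kept cells of those libraries, in the same order. Per gene, the secretory cells held from 21.6% (Clca1 at day 6) to 65.4% (Spink4 at day 1 replicate 1) in the treated libraries.

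Muc2, the mucin itself, was the most abundant of the 7 in the secretory cells of every library. It stood at 15941 CPM at day 1 replicate 1, 10845 at day 1 replicate 2, 15966 at day 3, 13497 at day 6 and 16805 in the normal library. The treated values spanned 1.47-fold, and early and late libraries overlapped. Muc2 was the highest of the 7 genes in 164 of 224 secretory cells at day 1 replicate 1, in 78 of 173 at day 1 replicate 2, in 33 of 62 at day 3, in 25 of 45 at day 6 and in 26 of 69 normal ones. Cells thinned to 1000 UMIs held a Muc2 UMI in 98.2%, 82.1%, 98.4% and 95.6% of secretory cells of the treated libraries. In the same order, however, 90.4%, 59.3%, 74.3% and 60.2% of non-epithelial cells did so too, so that presence of a Muc2 UMI set the cell types poorly apart. Unthinned, all secretory cells of day 1 replicate 1, day 3, day 6 and the normal library held a Muc2 UMI.

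Spink4, the protease inhibitor, was as even as Muc2. Secretory cells held 4458 CPM at day 1 replicate 1, 5142 at day 1 replicate 2, 4612 at day 3 and 6255 at day 6, a span of 1.40-fold. The normal goblet-like cells held 1878, which was below all 4 treated libraries.

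Reg4 was higher in both late libraries than in both early ones in secretory cells. It stood at 5417 and 3844 CPM at day 1, at 13124 at day 3 and at 7643 at day 6. At day 3 it made up 37.0% of the UMIs of the 7 genes in secretory cells, against 14.1% to 17.9% in the other treated libraries. It was the highest of the 7 genes in 25 of 62 secretory cells at day 3. Normal goblet-like cells held 3268, below all 4 treated libraries, but without the 5 richest cells of each library they held 4011, above the 3413 of day 1 replicate 2.

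Zg16, the bacteria-binding lectin, varied far more. Secretory cells held 4436 CPM at day 1 replicate 1, 1637 at day 1 replicate 2, 637 at day 3 and 7701 at day 6, a span of 12.1-fold. The lowest and the highest value were both from late treatment.

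Fcgbp, the mucus sheet protein, stood at 929 CPM at day 1 replicate 1, at 1645 at day 1 replicate 2, at 349 at day 3 and at 3021 at day 6. Its span was 8.65-fold, again with day 3 lowest and day 6 highest.

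Clca1, the mucus protease, was the scarcest member in the secretory cells of the 4 treated libraries. Secretory cells held 448 and 310 CPM at day 1, 26.9 at day 3 and 504 at day 6. The day 3 value rests on 11 UMIs in 62 cells (95% Poisson interval 13.4 to 48.1 CPM). In 919 columnar cells of that library the level was 2.72.

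Tff3, the trefoil peptide, held 2036 and 3853 CPM at day 1, 742 at day 3 and 4122 at day 6, a span of 5.55-fold. The 4 genes Zg16, Fcgbp, Clca1 and Tff3 were thus each lowest at day 3 and highest at day 6 among the treated libraries, while Muc2 and Spink4 differed little and Reg4 was highest at day 3.

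A few cells carried much of these sums. The 5 secretory cells richest in the 7 genes held 40.2% of the UMIs of the 7 genes in secretory cells at day 1 replicate 1 and from 25.3% to 32.7% in the other treated libraries. Without them (an alternative chosen after the values were seen), Zg16 stood at 2348 CPM at day 1 replicate 1, at 867 at day 1 replicate 2 and at 4452 at day 6, and Fcgbp at day 1 replicate 1 at 578. Clca1 at day 6 stood at 203 in place of 504, below both day 1 libraries at 314 and 305. The day 3 library stayed lowest for the 4 genes, at 649 for Zg16, 370 for Fcgbp, 31.6 for Clca1 and 783 for Tff3. It also stayed highest for Reg4, at 11066. The median secretory cell gave 1.31%, 1.27%, 3.32% and 3.72% of its UMIs to the 7 genes at day 1 replicate 1, day 1 replicate 2, day 3 and day 6, and 2.61% in the normal library.

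**Figure D2:**
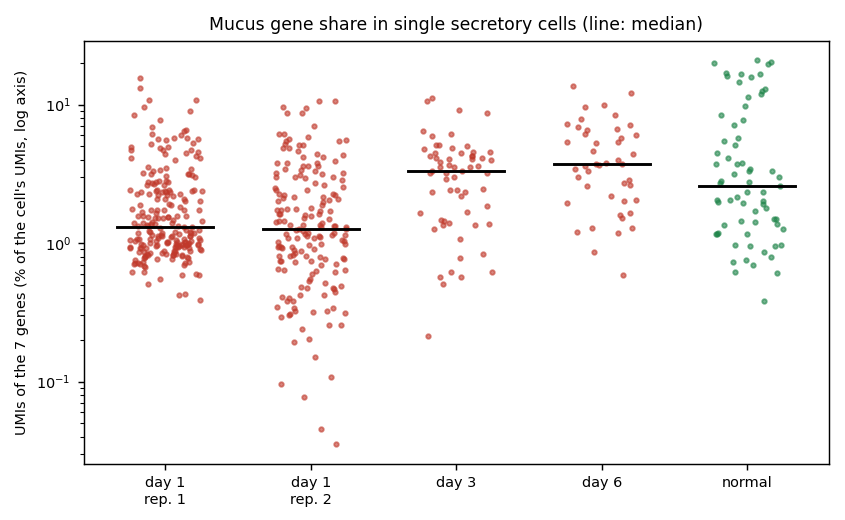
Share of each secretory cell's UMIs that came from the 7 genes, in percent on a log axis, 1 point a cell and a line at the median. Medians were 1.31% and 1.27% in the day 1 libraries, 3.32% at day 3, 3.72% at day 6 and 2.61% in the normal library.

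The make-up of the 7-gene UMIs is given by cell class, since the classes of a library shared some features of it and differed in others. In secretory cells of day 3 Muc2 made 45.0%, Reg4 37.0%, Spink4 13.0%, Tff3 2.09%, Zg16 1.80%, Fcgbp 0.985% and Clca1 0.0757%. In squamous-like cells of the same library Muc2 made 46.0%, Reg4 28.0%, Spink4 15.7%, Tff3 4.41%, Zg16 4.49%, Fcgbp 1.35% and Clca1 0.0531%, at a lower total (0.327% of their UMIs against 3.55%). Enteroendocrine-like cells stood apart at day 6, where Reg4 made 52.5% of their 7-gene UMIs against 17.9% in secretory cells. At day 6 Zg16 made 18.0% in secretory, 20.9% in other columnar, 18.9% in squamous-like and 21.8% in non-epithelial cells. In the normal library Reg4 made 6.73% in goblet-like and 12.1% in other columnar cells. Clca1 there made 11.7% in goblet-like, 11.2% in other columnar and 18.9% in non-epithelial cells, against at most 1.33% in treated secretory cells.

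**Figure D3:**
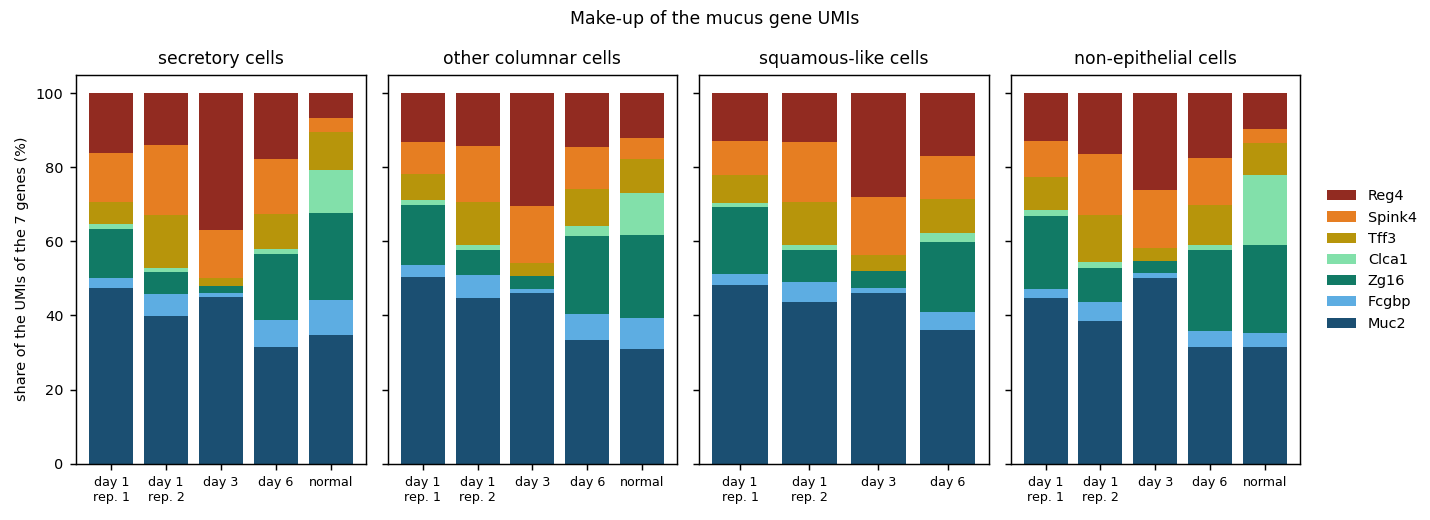
Share of each gene among the UMIs of the 7 genes, in percent, stacked by library in secretory, other columnar, squamous-like and non-epithelial cells; the normal library held no squamous-like cells. Reg4 takes its widest share at day 3 in all 4 panels, and Clca1 is wide in the normal library only.

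The finer clustering split the secretory cells into goblet-like cells, 24 at day 1 replicate 1, 76 at day 1 replicate 2, 43 at day 3 and 44 at day 6, and Paneth-like cells, 201, 99, 18 and 1. The goblet-like cells were deep, with a median of 8413 to 11343 UMIs, and the Paneth-like ones of the first 3 libraries shallow, with 1600 to 1898. The Paneth-like cells of day 1 replicate 2 met their label best: Lyz1, the Paneth lysozyme, stood at 12286 CPM, and all 10 Paneth markers were over 2-fold above other columnar cells. At day 1 replicate 1 the label was weaker, with Lyz1 at 2350 and 7 of 10 markers over 2-fold. Lyz1 (2350 against 3204), Mmp7 (873 against 1664) and the summed Paneth markers (4295 against 5040 CPM) were lower there than in goblet-like cells. The defensins Defa17 (385 against 49.5) and Defa24 (573 against 61.1) were higher. The thinned detection rates of these Paneth-like cells were also close to those of neutrophil-like cells of the same library. They were 98.0% against 95.8% for Muc2, 86.6% against 85.9% for Zg16 and 66.7% against 63.4% for Tff3. Paneth markers were also present in the goblet-like cells of these libraries, with Lyz1 at 3204 at day 1 replicate 1, 2111 at day 1 replicate 2 and 3844 at day 3.

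Muc2 and Fcgbp leaned to the goblet-like side in both day 1 libraries and at day 3, and Clca1 did at day 1. Muc2 was 2.85 times, 3.00 times and 2.52 times as high in goblet-like as in Paneth-like cells at day 1 replicate 1, day 1 replicate 2 and day 3. Fcgbp was 2.87, 3.54 and 2.51 times as high, and Clca1 5.02 and 4.69 times at day 1. The 18 Paneth-like cells of day 3 held 0 Clca1 UMIs. With 34096 UMIs in all, they were too few to show a lean from the goblet-like level of 29.7 CPM. Spink4 and Reg4 had that lean at day 1 replicate 1, with ratios of 2.14 (95% interval 1.99 to 2.29) and 2.41 (2.26 to 2.57), but not at day 1 replicate 2. There Spink4 was near 1 (5095 against 5036 CPM, ratio 1.01, 95% interval 0.952 to 1.08) and Reg4 was lower in goblet-like cells (3423 against 5226, ratio 0.655, 95% interval 0.615 to 0.698). At day 3 the ratio was 1.15 (0.964 to 1.37) for Spink4 and 1.17 (1.06 to 1.30) for Reg4. Zg16 and Tff3 were 2.07 to 2.70 times and 2.10 to 2.17 times as high in goblet-like cells at day 1, while at day 3 their intervals included 1. The intervals cover counting error within 1 library each, and the clusters were drawn from the same cells, so no test was made. At day 1 replicate 1 the ratios also rest on a Paneth-like label that Lyz1 and Mmp7 went against.

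**Figure D4:**
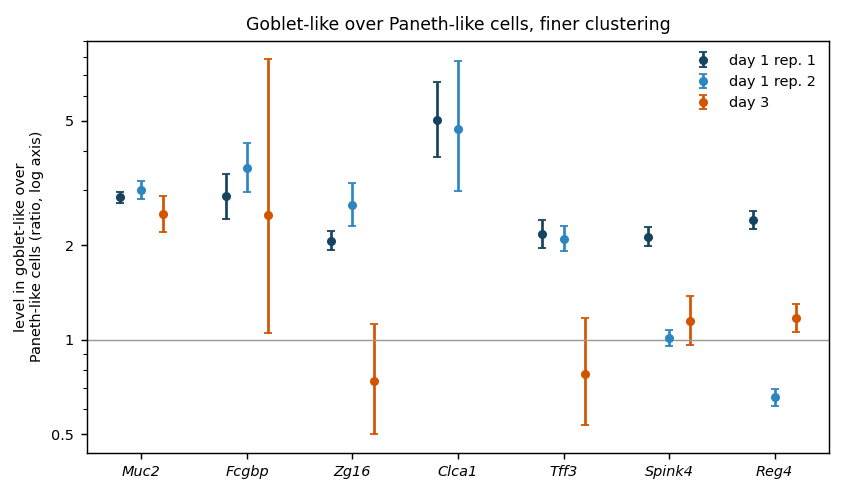
Level in goblet-like over Paneth-like cells of the finer clustering, as a ratio on a log axis with 95% intervals of counting error, for day 1 replicate 1, day 1 replicate 2 and day 3; Clca1 at day 3 has no ratio because its Paneth-like cells held 0 UMIs. Muc2 and Fcgbp lie above 1 in all 3 libraries, and Reg4 lies on both sides.

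In the goblet-like cells taken alone, Zg16 and Fcgbp had the same order of libraries as in all secretory cells. Zg16 stood at 6198, 1878, 627 and 7703 CPM at day 1 replicate 1, day 1 replicate 2, day 3 and day 6, and Fcgbp at 1446, 1902, 368 and 3028. Clca1 was instead highest at day 1 replicate 1, with 800, followed by 505 at day 6, 371 at day 1 replicate 2 and 29.7 at day 3. Tff3 was highest at day 1 replicate 2, with 4264 against 4128 at day 6, and lowest at day 3 with 708. Reg4 no longer set late apart from early treatment, since day 1 replicate 1 at 7975 lay above day 6 at 7657, with 3423 at day 1 replicate 2 and 13382 at day 3. Muc2 stood at 24762 at day 1 replicate 1, above the 12304, 16750 and 13518 of the other libraries.

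Late treatment was compared with early treatment on summed counts, 2 libraries against 2, with edgeR's quasi-likelihood test over all genes (Benjamini-Hochberg adjusted p under 0.05). None of the 7 genes passed in secretory cells, where 0 of 7920 genes (0.0%) passed. At an unadjusted p under 0.05 there were 265 genes, and DESeq2 called 19, no mucus gene among them. In other columnar cells 0 of 13537 genes (0.0%) passed, with 2268 at an unadjusted p under 0.05 and 675 by DESeq2, again with no mucus gene. In the goblet-like cells of the finer clustering 0 of 6648 (0.0%) passed, with 302 unadjusted and 24 by DESeq2. Goblet-like cells of the main clustering were in 1 treated library only and Paneth-like cells numbered 2 at day 6, so neither allowed a test. The p-values set the late-minus-early difference against the spread within the 2 early and the 2 late libraries. That spread also holds differences of library structure and, in late treatment, of day.

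Reg4 came nearest in secretory cells, 1.22 higher on the log2 scale in late treatment (SE 0.56, adjusted p = 0.999), with both late libraries above both early ones. In the goblet-like cells of the finer clustering the groups overlapped and the difference was 0.94 (SE 0.68, adjusted p = 0.976). Of all genes tested in secretory cells, 14.6% had both late libraries above both early ones. In other columnar cells Reg4 was 1.20 higher (SE 0.67, adjusted p = 0.412) and Spink4 0.81 higher (SE 0.46, adjusted p = 0.417). Spink4 had both late libraries above both early ones there, as did 24.1% of all genes tested, and it lay under the non-epithelial level in all 4 libraries. The estimates for Muc2, Zg16 and Fcgbp in secretory cells were 0.18 (SE 0.53), 0.46 (SE 0.99) and 0.43 (SE 0.85), and those for Tff3 and Clca1 were -0.23 (SE 0.76) and -0.49 (SE 0.97), all with an adjusted p of 0.999. For Zg16, Fcgbp, Tff3 and Clca1 the late libraries lay on both sides of the early ones.

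Day 1 replicate 1 and day 3 were built with a single index and sequenced on an MGI instrument, whereas day 1 replicate 2 and day 6 were built with a dual index and sequenced on a NovaSeq. Within each structure there is 1 early and 1 late library, which gives values with no test. In secretory cells Zg16 was 2.77 lower at day 3 than at day 1 replicate 1 and 2.31 higher at day 6 than at day 1 replicate 2, on the log2 scale with 1 CPM added. Clca1 changed by -3.99 and 0.78, Fcgbp by -1.38 and 0.95, and Tff3 by -1.43 and 0.17. Muc2 (0.03 and 0.39), Spink4 (0.08 and 0.36) and Reg4 (1.30 and 1.07) had the same sign in both. With the day 6 library left out, the Clca1 change from day 1 to day 3 was -3.42 in other columnar cells. It was -4.22 in goblet-like cells of the finer clustering and -3.75 in secretory cells. These fits assume that the lone day 3 library varies like the others, so only the size of the change is given. Columnar Clca1 at day 3 was 2.72 CPM, 0.346 times the non-epithelial level.

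**Figure D5:**
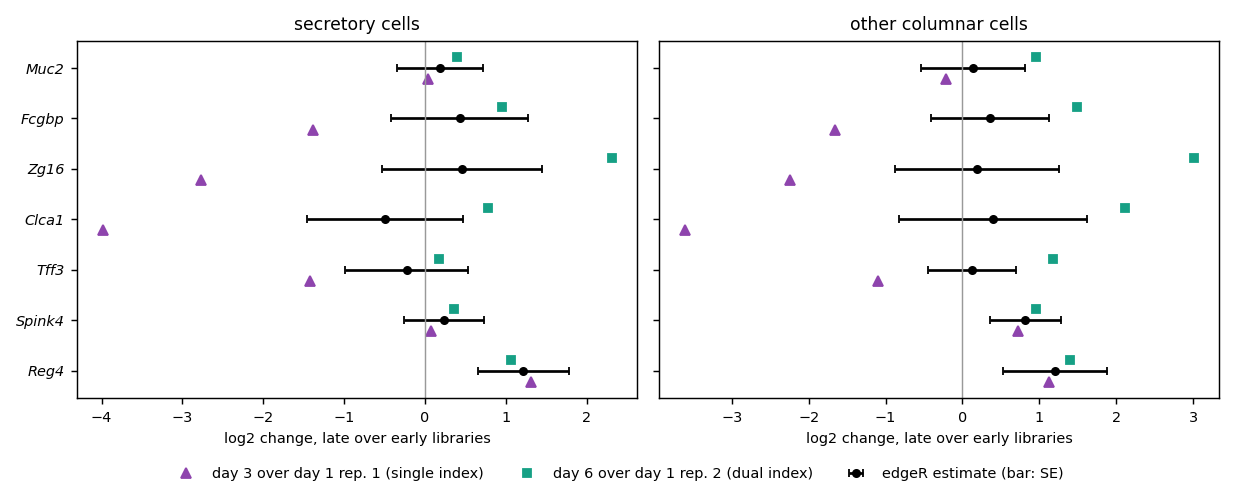
Log2 change of each gene from early to late libraries in secretory (left) and other columnar cells (right): edgeR estimate with its standard error (black), day 3 over day 1 replicate 1 (purple triangle) and day 6 over day 1 replicate 2 (green square). The 2 within-structure values lie on opposite sides of 0 for Fcgbp, Zg16, Clca1 and Tff3 in both panels and for Muc2 in the right one, and Reg4 and Spink4 lie right of 0 throughout.

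Secretory cells were a smaller share of the epithelium in the late libraries, by a test that could not reach the threshold. They were 39.0% (95% exact binomial interval 34.9 to 43.1) and 10.8% (9.29 to 12.4) of the epithelial cells at day 1, 4.89% (3.77 to 6.22) at day 3 and 2.06% (1.51 to 2.74) at day 6. Both late libraries were below both early ones, a difference of -21.4 percentage points with an exact permutation p of 0.33 (two-sided), which is the smallest that 2 libraries against 2 allow. Within the single-index pair the share was 39.0% and 4.89%, and within the dual-index pair 10.8% and 2.06%. The difference was -7.29 points without day 1 replicate 1, whose secretory cells were mostly the shallow Paneth-like cells with the weaker label, and -35.5 without day 1 replicate 2. Goblet-like cells alone formed a cluster at day 6 only, 1.97% of epithelial cells. In the other treated libraries the main clustering left them within the Paneth-like cluster, so their number there cannot be read from it. In the finer clustering they were 4.38% (2.83 to 6.45) and 5.50% (4.36 to 6.84) at day 1, 3.39% (2.46 to 4.54) at day 3 and 2.02% (1.47 to 2.70) at day 6.

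Each cluster of other columnar cells was scored only in the library that held most of its cells. No cluster was scored at day 1 replicate 1. Among these clusters, 1 lay above the non-epithelial level for all 7 genes. It was made of 847 shallow day 6 cells (median 1388 UMIs) led by Pigr, Gbp2 and Car1, genes of the surface colonocyte and of interferon response. There Clca1 was 4.08 times (95% interval 3.12 to 5.39), Fcgbp 3.37 times (2.87 to 3.98) and Zg16 2.31 times (2.14 to 2.49) the level in non-epithelial cells, and Muc2, Tff3, Spink4 and Reg4 were 1.68 to 2.02 times. A further day 6 cluster of 228 cells, led by Clca4b, had Clca1 at 2.01 times and Fcgbp at 1.73 times, but Reg4 at 0.44 times. The deep day 6 cluster led by Gsdmc4 and Adh1 (281 cells, median 14048 UMIs) lay under 1 for all 7 genes. Depth per cell was lowest in the first and highest in the last of these 3 clusters, and its part in the ratios was not tested.

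Summed over the 7 genes, the normal library carried far less free RNA, 0.0368% of the UMIs of its non-epithelial cells. Clca1 was an exception, with a non-epithelial level above those of day 1 replicate 2, day 3 and day 6. With all kept cells, the columnar cells of the normal library stood 3.15 times (Clca1) to 11.9 times (Fcgbp) above its non-epithelial cells. Of its 2 columnar clusters, the 134 cells led by Clca3b, Nxpe2 and Gpx2, with the cycling genes Top2a and Ube2c, held 1078 CPM of Muc2, 400 of Reg4 and 180 of Spink4. The 194 cells led by Tgm3, Car1 and Slc26a3, genes of the mature surface colonocyte, held 183, 88.9 and 50.6. Zg16 was closer between them, at 474 and 406, as was Tff3, at 185 and 174. Few cells carried these counts: in each of the 2 clusters the 5 richest cells held 63% of the 7-gene UMIs, and 22.3% and 13.1% of thinned cells held a Muc2 UMI, against 12.9% of non-epithelial cells. With the cells of the top 6% of doublet scores removed, columnar Fcgbp stood at 59.1 in place of 163 CPM. Zg16 stood at 163 in place of 438 and Clca1 at 76.2 in place of 219 CPM. For Clca1 this left little of the columnar lead over the non-epithelial level of all kept cells.

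Normal goblet-like cells differed from the treated secretory cells chiefly in Clca1, with 5681 CPM against 26.9 to 504, at least 11.3 times each treated value. Zg16 (11313), Fcgbp (4664) and Tff3 (4950) were also above the 4 treated libraries, at 1.47, 1.54 and 1.20 times the day 6 value and 17.8, 13.4 and 6.67 times the day 3 value. Spink4 and Reg4 were below all 4, at 0.300 to 0.421 and 0.249 to 0.850 times. The 5 richest normal cells held 34.2% of the 7-gene UMIs. Without the 5 richest cells of each library, Clca1 was 3387 against at most 314, Spink4 2109 against at least 3719, and Tff3 was nearly level with day 6, at 3184 against 3171. Reg4 then lay above day 1 replicate 2. The treated secretory class also holds Paneth-like cells. Beside the treated goblet-like cells of the finer clustering, normal Clca1 stood at 5681 against 29.7 to 800 CPM. Normal Muc2, at 16805, lay within the 12304 to 24762 CPM of those treated cells. With 1 normal library these values have no test.

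Among 8037 other genes with at least 20 CPM on average, those most like the mean course of the 7 were sought over 35 sums of cell type and library (11 cell types, the 4 treated libraries). Agr2, the disulfide isomerase that folds MUC2, was the nearest with a Pearson correlation of 0.954. It was followed by Retnlb (0.924), a goblet resistin-like molecule, Klk1 (0.889), 9030619P08Rik (0.872), Slc12a8 (0.863), Best2 (0.862), a goblet bicarbonate channel, Bcas1 (0.853), Capn9 (0.847), Sval1 (0.846) and Ffar4 (0.829). Agr2, Klk1, Bcas1 and Capn9 were among the markers that named the goblet-like cells. These sums share libraries and free RNA, so the correlations are a description.

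Taken singly, the members had partly different neighbours. Muc2 was nearest to Retnlb (0.956), Best2 (0.864) and Chst4 (0.858), a sulfotransferase, and Reg4 to Chst4 (0.898), Retnlb (0.877) and 9030619P08Rik (0.856). Spink4 was nearest to Retnlb (0.942), Agr2 (0.911) and Best2 (0.904). Fcgbp went with Agr2 (0.901), Bcas1 (0.875) and Spdef (0.869), Tff3 with Agr2 (0.920), Sval1 (0.891) and Retnlb (0.835), Clca1 with Sval1 (0.841), Agr2 (0.777) and Tm9sf2 (0.730), and Zg16 with Agr2 (0.797), Sval1 (0.764) and Retnlb (0.752). Among the members, Fcgbp and Tff3 were the closest pair (0.934), ahead of Muc2 and Spink4 (0.929), and Clca1 and Reg4 the most distant (0.510).

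The rest of the goblet machinery was read from 6 lists. No gene of any list passed the edgeR test in other columnar or in secretory cells, as no gene of any kind did. Over all genes tested, 16.8% had an unadjusted p under 0.05 in columnar cells and 3.35% in secretory cells, the shares against which the counts below are to be read. Of 13 tested genes of mucin folding and secretion, 5 had an unadjusted p under 0.05 in other columnar cells and 0 in secretory cells, with a median log2 change of 0.51 and 0.34 against 0.02 and -0.00054 over all genes tested. Of 21 genes of mucin O-glycosylation and sulfation, 7 and, of 19 in secretory cells, 2 had one, with medians of 0.70 and 0.10. Of 7 other mucins 4 had one in columnar cells, with a median of 0.89, and of 15 other mucus layer and antimicrobial genes 7 had one, with a median of 1.02. In secretory cells these 2 lists had 0 of 5 and 2 of 14, with medians of 0.52 and 0.01. The 11 secretory lineage transcription factors gave 2 and 0 (medians 0.49 and 0.10), and the Notch genes 1 of 10 and 1 of 7 (medians -0.11 and -0.04).

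None of the genes named from these lists passed the test, and their values follow. Muc13, a membrane mucin of colonocytes, stood at 1138, 1113, 2898 and 4389 normalised CPM in columnar cells, with the early libraries first and then day 3 and day 6 (difference 1.69 on the log2 scale, SE 0.50, adjusted p = 0.214). Muc3 stood at 947, 714, 2475 and 3056 and Muc4 at 5.08, 8.04, 22.4 and 29.4, while Muc3a did not separate the groups (30.2 at day 6 and 83.3 at day 3). Unlike the 7 goblet genes, Muc13 and Muc3 were above the non-epithelial level in the columnar cells of all 4 libraries. Creb3l1, a transcription factor of secretory cells, stood at 57.2, 53.0, 316 and 164 in columnar cells (log2 difference 2.12, SE 0.44, adjusted p = 0.191) and at 416, 412, 908 and 616 in secretory cells. Xbp1, the factor of the unfolded protein response, stood at 161, 108, 281 and 346 in columnar cells, Klf4 at 182, 239, 199 and 1334, and Sox9 at 350, 279, 263 and 130. Before normalisation, columnar Creb3l1 was at 64.6, 62.0, 285 and 136 CPM, against 70.5, 48.9, 244 and 68.0 in non-epithelial cells. Columnar Xbp1 lay below the non-epithelial cells in every treated library, at 182, 126, 253 and 288 against 470, 423, 258 and 959 CPM.

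Agr2 in columnar cells stood at 175, 121, 240 and 450, and in secretory cells, where its order of libraries was that of Fcgbp and Tff3, at 2336, 2844, 1132 and 3651. Before normalisation, columnar Agr2 was at 198, 142, 216 and 375 CPM. It lay below the non-epithelial cells (329, 189, 291 and 255) in every treated library but day 6. The chaperone Hspa5 ranged from 362 to 695 in columnar cells, with Pdia3 from 149 to 441 and Pdia4 from 68.5 to 126. For the sugar and sulfate genes, columnar cells held 66.0, 86.3, 135 and 374 of B3galt5 (adjusted p = 0.230), 102, 111, 170 and 239 of Slc35a1 (adjusted p = 0.274), 177 to 329 of the sulfate carrier Slc26a2 and 93.8 to 372 of St3gal4. The Notch target Hes1 ranged from 88.2 to 136, Notch1 from 19.6 to 61.5, Notch2 from 10.9 to 111 and Dtx4 reached 51.6 at day 3.

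Of the other mucus layer genes, Lypd8, which keeps flagellated bacteria from the epithelium, stood at 2368, 2508, 4867 and 22774 in columnar cells (adjusted p = 0.239), with day 6 far above the rest. Dmbt1, a scavenger glycoprotein, stood at 799, 441, 2128 and 3221 there and at 344, 122, 1103 and 550 in secretory cells (log2 difference 1.83, SE 0.64, adjusted p = 0.999). Before normalisation, secretory cells held 325, 124, 1023 and 533 CPM of Dmbt1, close to the 262, 119, 930 and 521 of non-epithelial cells. The part of free RNA in the secretory difference was not tested. Lgals4, a lectin of absorptive cells, stood at 1886, 2062, 4455 and 5684 in columnar cells and ranged only from 4030 to 4390 in secretory cells. Reg3g, an antibacterial lectin, was at 972, 246, 948 and 292, high in the single-index and low in the dual-index libraries.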

How the data were processed

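The 5 single-cell libraries (inDrop, CEL-Seq amplification) were read as deposited. The authors counted UMIs per gene on GRCm38 with dropEst and gave raw counts with no batch correction; total UMIs ranged from 5132360 to 16904947 a library. Members and lists were chosen with earlier results of these data known. Cells with under 500 genes or over 15% mitochondrial counts were dropped. Treated and normal libraries were clustered separately (log of counts per 10000, 2000 variable genes without the 7 members, 20 components, 20 neighbours, Leiden resolution 1, leidenalg 0.10.2, scanpy 1.11.5), and clusters were named by fixed markers; a naming threshold was raised after a myeloid cluster had been named tuft. Doublets were kept in the main result, with an alternative that drops the top 6% of scores. Libraries shared from 4 to 42 cell barcodes. Counts were summed per library and class and tested with edgeR 4.0.16 (TMM, quasi-likelihood, R 4.3.3), with DESeq2 1.42.0 as an alternative. Named genes were all members, up to 4 of each list (those past the test, then the most abundant) and the nearest genes by correlation, on log2 of CPM plus 20. Genes other than members are named as leading or marker genes after their values were seen. Intervals and floors (3 counts) cover counting error only. Shares of cells with a UMI used cells thinned to 1000 UMIs. The secretory class and the finer goblet-like test were added after the data were seen.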

Additional observations from a re-analysis of the deposited data

Results flagged for a closer look

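For Fcgbp, Zg16, Clca1 and Tff3 the early-to-late change in secretory cells had opposite signs in the 2 library structures, with 1 library on each side. The difference was not tested. How often other genes had opposite signs was not counted, so nothing is read from the number of members. On the log2 scale Fcgbp changed by -1.38 from day 1 replicate 1 to day 3 and by 0.95 from day 1 replicate 2 to day 6. Zg16 changed by -2.77 and 2.31, Clca1 by -3.99 and 0.78, and Tff3 by -1.43 and 0.17 over the same pairs. The pair, the day and the sequencer change together and cannot be told apart.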

How the results depend on the processing

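With 2 libraries a side, counts of called genes were unstable. In other columnar cells 0 genes passed with edgeR, 675 with DESeq2, 1152 without the filter on low counts, 424 with library structure as a block and from 1 to 1769 with a library left out (1769 without day 3, 975 without day 6). In secretory cells 0 passed, against 19 with DESeq2, 72 without the filter, 45 with the block and from 0 to 97 with a library left out (97 without day 3, 0 without day 6). In goblet-like cells of the finer clustering 0 passed, against 24, 87 and 9, and from 11 to 192 with a library left out (192 without day 6, 145 without day 3). The cause was not tested. The other clusterings and the removal of high doublet scores gave 0 calls in columnar and secretory cells.

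Among the members, the block turned the columnar change of Fcgbp to -0.059 and of Clca1 to -0.53, and the secretory change of Fcgbp to -0.19 and of Zg16 to -0.21. With the block, the secretory change of Reg4 was 1.19 (edgeR adjusted p = 0.070). Leaving out a library moved the columnar changes from -0.51 to 1.33 for Muc2, from -1.37 to 1.13 for Fcgbp, from -1.42 to 2.31 for Zg16, from -3.42 to 1.35 for Clca1 and from -0.72 to 0.68 for Tff3. It moved the secretory changes from -0.13 to 0.55 for Muc2, from -1.80 to 1.27 for Fcgbp, from -2.20 to 1.42 for Zg16, from -3.75 to 0.43 for Clca1 and from -1.90 to 0.53 for Tff3. Reg4 and Spink4 kept a positive sign in all 11 alternatives of these cell classes, though both lay under the non-epithelial level in columnar cells of all 4 libraries. In goblet-like cells of the finer clustering Spink4 had both signs. It was -0.010 in the main fit, -0.23 without day 1 replicate 2 and 0.22 without day 1 replicate 1.

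In the main clustering the late difference in the share of goblet-like cells was 0.98 percentage points (exact permutation p = 1.0), from 0.0 to 1.97 with a library left out. No direction can be read from it, since goblet-like cells of day 1 and day 3 lay within the Paneth-like cluster there. The difference was -2.77 with the 7 genes among the variable genes and -2.24 at resolution 2 (both exact permutation p = 0.33). The late difference in the share of secretory cells ran from -35.5 to -7.29 points with a library left out. No paired analysis was possible because the labels number only the day 1 libraries, so the groups share fewer than 2 replicate numbers. The planned goblet-like and Paneth-like tests of the main clustering could not be made, since 3 treated libraries held 0 goblet-like cells and day 6 held 2 Paneth-like cells. Depth limits Clca1 most, with 11 UMIs in the day 3 secretory cells.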
